A study of Mus musculus with 24 samples.

Results

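Tslp, Csf1, Csf2, Csf3, Il6, Il1a, Il11, Il33 and Lif are 9 cytokine genes among the 23478 gene symbols counted by RNA-seq in 24 libraries of 4T1-T cells, a mouse breast cancer line. They were chosen by name, with results of these libraries already known. Their levels are therefore given as a description, and calls made on them are not tests of the choice. 4T1-T is a clonal line of the 4T1 mammary carcinoma, so every group comes from 1 clone. The libraries form 6 groups of 4, with the letters A to D: cells from lung metastases with shAsns-1, with shAsns-2 or with shRenilla, and cells from primary tumors with the same 3 hairpins. shAsns-1 and shAsns-2 are short hairpin RNAs against Asns, the gene for asparagine synthetase, and shRenilla is the control hairpin against a luciferase that mouse cells lack. Cells of all 6 groups were infected with a hairpin, recovered from their site by selection in 6-thioguanine, which kills host cells but not the resistant carcinoma line, and cultured in DMEM supplemented with non-essential amino acids. The labels give no mouse strain, age or interval since recovery, and do not say whether the 4 libraries of a group are separate mice or cultures. p-values thus measure the spread between these libraries, which may be partly technical.

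These cytokines are small secreted or released proteins with which epithelial and tumor cells signal to blood and stromal cells. Thymic stromal lymphopoietin (Tslp) and interleukin-33 (Il33) are alarmins of barrier epithelium that act on dendritic cells, mast cells and innate lymphoid cells, and interleukin-1α (Il1a) is an alarmin that activates NF-κB in its target cells. Csf1, Csf2 and Csf3 encode the colony-stimulating factors M-CSF, GM-CSF and G-CSF, which drive the growth of macrophages and granulocytes, and 4T1 tumors are known for the granulocyte expansion they cause in mice. Il6, Il11 and Lif belong to the family whose receptors share the chain gp130 and signal through JAK kinases and STAT3. Many cytokine mRNAs are short-lived because AU-rich stretches in their 3′ ends are bound by proteins such as tristetraprolin.

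Asns was read first as a check of the labels. It averaged 194 ± 18.2 CPM (reads relative to the library total scaled by TMM, mean ± SD, n = 4 here and throughout) in lung shAsns-1, 44.6 ± 6.51 CPM in lung shAsns-2 and 63.6 ± 7.89 CPM in lung shRenilla. In tumor-derived cells it averaged 170.4 ± 17.1 CPM in shAsns-1, 36.8 ± 10.3 CPM in shAsns-2 and 82.8 ± 15.9 CPM in shRenilla. A gene targeted for knockdown was thus at its highest in both groups labelled shAsns-1, so these are called the libraries labelled shAsns-1, and no direction drawn from them is a direction of Asns loss. Library totals ran from 8.48 to 38.0 M counts, with a median of 28.7 M. Several defining genes of other cells were at or near 0: Sftpc of lung epithelium in 20 of 24 libraries, Nkg7 of lymphocytes and Tpsb2 of mast cells in all 24, and S100a9 of neutrophils in 19 were at 0. S100a8, also of neutrophils, was read in every library, with 5 to 284 reads. All 8 carcinoma epithelial markers were read in every library. Krt8 and Krt18 had medians of 192 and 255 CPM, and the epithelial junction genes Cdh1 and Epcam, with medians of 35.2 and 21.7 CPM, differed widely between the groups.

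The 5′ flanks of Il1a, Lif, Il11 and Il6 are shown because they are the ones that hold the AP-1 letters TGANTCA, and they were picked for that. Over centred log2 CPM group means Csf1 and Csf2 were the closest pair (root mean square difference 0.133), and Csf2 was closer to Lif (0.357) than Il1a was (0.387), with these letters in neither the Csf1 nor the Csf2 flank. The distance is not scaled to the span of a gene's group means, and that of Csf1 is only 0.836, so genes that vary little lie close. The part of these letters in the levels was not tested. The Csf2 flank is set on a RefSeq start 232 bases upstream of the gene's start in GENCODE, and does not reach the GENCODE start. Sequence next to that start was not searched, so nothing is read from the absence of letters in Csf2. Each printed flank runs from 250 bases before to 50 bases after the RefSeq start in build GRCm38.p6, 5′ to 3′ on the gene's strand: chr2:129309923-129310222 on the minus strand for Il1a, chr11:4257318-4257617 on the plus strand for Lif, chr7:4778092-4778391 on the minus strand for Il11 and chr5:30012864-30013163 on the plus strand for Il6. Capitals mark every match on either strand to 6 motifs: AP-1, κB (by name), C/EBP (TTGCNNAA), STAT (TTCNNNGAA), CRE (TGACGTCA) and the TATA box (TATAAA).
Il1a: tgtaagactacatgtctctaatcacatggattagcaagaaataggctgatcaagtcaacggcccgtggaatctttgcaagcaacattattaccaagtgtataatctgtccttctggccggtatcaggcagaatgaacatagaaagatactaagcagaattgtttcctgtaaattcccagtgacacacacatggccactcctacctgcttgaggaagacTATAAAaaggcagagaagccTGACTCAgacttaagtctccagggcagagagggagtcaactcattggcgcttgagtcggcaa
Lif: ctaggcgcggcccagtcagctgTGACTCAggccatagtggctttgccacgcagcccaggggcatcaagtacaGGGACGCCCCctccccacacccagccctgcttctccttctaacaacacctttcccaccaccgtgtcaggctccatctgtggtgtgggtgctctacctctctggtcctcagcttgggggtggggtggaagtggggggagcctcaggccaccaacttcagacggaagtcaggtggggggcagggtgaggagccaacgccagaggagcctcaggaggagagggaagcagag
Il11: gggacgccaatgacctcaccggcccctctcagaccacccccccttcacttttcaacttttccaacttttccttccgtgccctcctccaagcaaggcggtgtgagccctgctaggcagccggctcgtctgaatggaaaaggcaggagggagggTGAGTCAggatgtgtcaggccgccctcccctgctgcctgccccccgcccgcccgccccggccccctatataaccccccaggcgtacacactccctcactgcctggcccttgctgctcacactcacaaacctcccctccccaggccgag
Il6: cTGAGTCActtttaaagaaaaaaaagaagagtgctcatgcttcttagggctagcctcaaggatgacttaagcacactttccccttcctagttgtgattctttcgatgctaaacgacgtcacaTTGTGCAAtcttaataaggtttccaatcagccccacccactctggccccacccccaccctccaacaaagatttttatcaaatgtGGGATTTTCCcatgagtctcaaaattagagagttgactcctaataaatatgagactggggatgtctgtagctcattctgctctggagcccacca
The AP-1 letters lie at -12 to -6 from the start in Il1a, at -228 to -222 in Lif, at -98 to -92 in Il11 and at -249 to -243 in Il6. They occur in 4 of the 7 genes whose flank was used, and in 7.81% of all 32851 RefSeq flanks of the same length. The first is a count of genes and the second a share of flanks. Il11 and Il33 each have another RefSeq start whose flank was also searched, so a gene could match in either. The other flank of Il11 held none of the 6 motifs. The κB letters occur in Il6, Lif and Csf1, and in 8.46% of all flanks. The C/EBP letters occur in Il6, Csf2 and Il33 (10.8% of all flanks) and the TATA box in Il1a and Il33 (13.6%). STAT letters (8.30% of all flanks) and CRE letters (1.79%) were not found in these windows. A match is a string of letters and no evidence of binding.

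Tslp separated the libraries more widely than any other of the 9 genes apart from Il33. In lung-derived cells it was 423, 342, 311 and 451 CPM in the libraries labelled shAsns-1, 355, 333, 380.0 and 398 CPM in shAsns-2, and 542, 728, 515 and 482 CPM in shRenilla. In tumor-derived cells it was 503, 342, 575 and 499.9 CPM in the libraries labelled shAsns-1, 71.0, 61.3, 36.9 and 57.4 CPM in shAsns-2, and 58.9, 37.4, 37.8 and 50.1 CPM in shRenilla. All 12 lung libraries and the 4 tumor libraries labelled shAsns-1 lay above all 8 other tumor libraries, with no value between 71.0 and 311 CPM.

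The tumor libraries labelled shAsns-1 were 10.4-fold above tumor shRenilla in Tslp, a log2 fold change of 3.38 ± 0.20 (SE of the edgeR fit). The lung-to-tumor log2 fold change was 3.62 ± 0.20 in shRenilla, 2.70 ± 0.20 in shAsns-2 and -0.33 ± 0.18 in the libraries labelled shAsns-1, and only the last was not called. In the lung, all 4 libraries labelled shAsns-1 and all 4 with shAsns-2 lay below all 4 with shRenilla. Those 2 log2 differences, -0.57 ± 0.18 and -0.63 ± 0.18, were not called by edgeR but were by limma with library weights (-0.48 and -0.55). In Tslp, tumor shAsns-2 and tumor shRenilla overlapped (log2 fold change 0.29 ± 0.19).

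Markers of carcinoma cells and of other cell types also differed between the groups. Of the 8 carcinoma epithelial markers, edgeR called 6 lower and none higher in tumor shAsns-1 against tumor shRenilla (median log2 fold change -2.02), where 33.9% of all tested genes were called. Lung against tumor, 5 were called lower and none higher in shRenilla (median -1.77) and in shAsns-2 (median -2.13), and 3 lower and none higher in the libraries labelled shAsns-1 (median -0.18). All genes called were 21.8% in shRenilla, 20.9% in shAsns-2 and 8.55% in the libraries labelled shAsns-1. Cdh1, the gene for E-cadherin, ran from 18.6 to 44.2 CPM in the lung libraries, 29.9 to 47.6 CPM in tumor shAsns-1, 189 to 298 CPM in tumor shAsns-2 and 151 to 288 CPM in tumor shRenilla. Epcam ran from 8.27 to 24.4 CPM in the lung libraries, 15.5 to 21.7 CPM in tumor shAsns-1, 116 to 134 CPM in tumor shAsns-2 and 60.1 to 104 CPM in tumor shRenilla. Both genes thus divided the libraries as the cytokines Il1a and Lif did, and as Tslp did in the opposite direction.

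The summed levels, in which Krt8 and Krt18 weigh most, differed less. The summed level of 8 carcinoma epithelial markers ran from 421 to 475 CPM in lung shAsns-1, 379 to 785 CPM in lung shAsns-2, 426 to 599 CPM in lung shRenilla, 454 to 611 CPM in tumor shAsns-1, 897 to 1023 CPM in tumor shAsns-2 and 719.5 to 875 CPM in tumor shRenilla. That of 9 fibroblast markers ran from 34.3 to 70.2, 24.1 to 27.3, 26.3 to 51.4, 24.0 to 32.4, 19.0 to 23.3 and 17.5 to 21.1 CPM in the same order. Most of the fibroblast sum was Pdgfra, with a median of 24.7 CPM over the libraries, and Lum and Thy1 were at 0 in 12 and 15 libraries. Col1a1 and Col3a1 had reads in every lung library, up to 36 and 221, and at most 2 and 3 in any tumor library. Col1a2 of the same list was read in every library and overlapped between the sites with each hairpin. It ran from 0.455 to 0.868 CPM in tumor shRenilla and 0.287 to 0.924 CPM in lung shRenilla, and reached 1.39 CPM in tumor shAsns-1 D. Postn, the gene for the matrix protein periostin, ran the other way from Pdgfra, with 1.42 to 3.47 CPM in tumor shAsns-2 and tumor shRenilla and at most 0.502 CPM in the other 16 libraries.

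Of the other lists, macrophage and leukocyte markers summed to 16.5 to 28.5 CPM in lung and 11.2 to 20.6 CPM in tumor libraries. Most of that sum was Cd14, with a median of 14.0 CPM over the libraries. Adgre1 and Tyrobp of the same list were at 0 in 17 and 15 libraries, while Ptprc, Cd68, Lyz2 and Fcer1g were read in all. Neutrophil markers summed to 9.18 to 12.0 CPM in lung shAsns-1, 4.71 to 9.09 CPM in the other lung groups and 2.27 to 4.77 CPM in tumor libraries. S100a8 ran from 7.60 to 10.1 CPM in lung shAsns-1, 2.82 to 7.39 CPM in the other lung groups, 2.36 to 3.33 CPM in tumor shAsns-1 and 0.598 to 2.24 CPM in the other tumor groups. Endothelial markers summed to 5.27 to 5.80 CPM in tumor shAsns-1 and 1.73 to 4.98 CPM in the other 5 groups, most of it Tie1 with a median of 3.36 CPM. Lymphocyte, mast cell and lung epithelial markers summed to at most 0.202, 0.225 and 0.455 CPM. The part of any marker list in the cytokine levels was not tested. In bulk RNA, fewer cells of a type and less RNA per cell cannot be told apart.

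**Figure D1:**
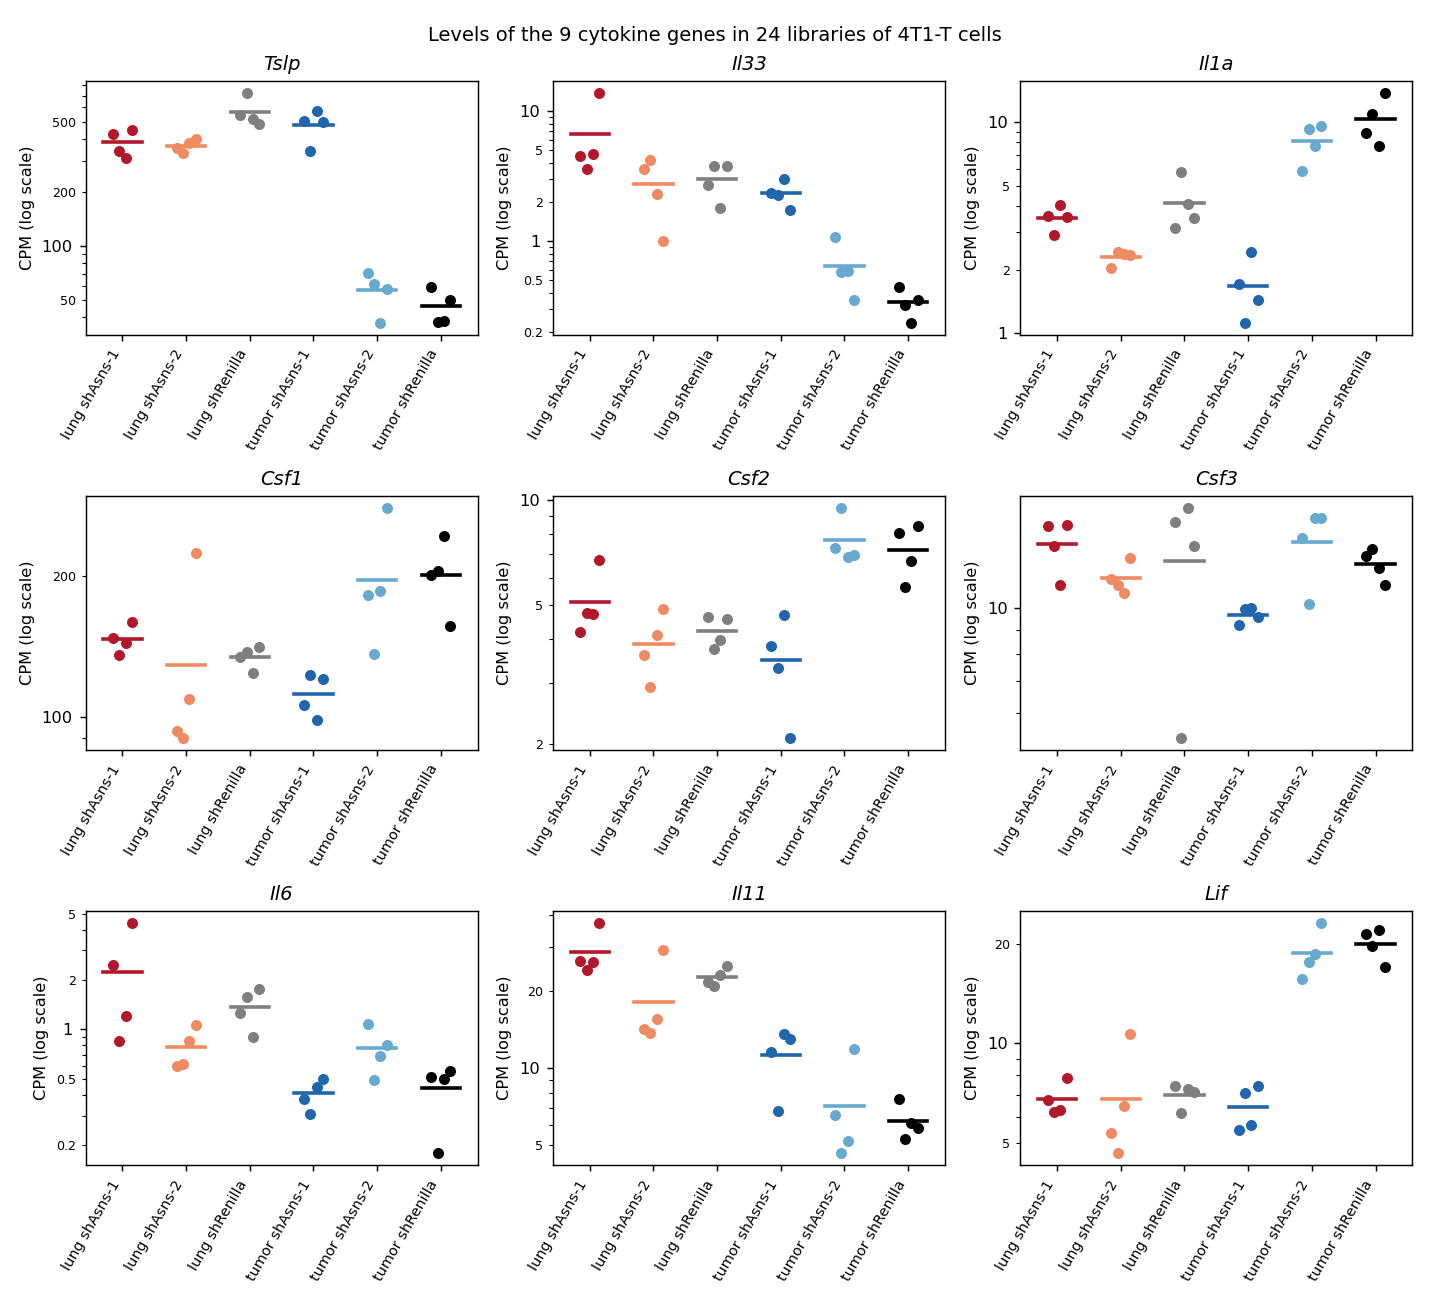
CPM of the 9 cytokine genes (log axis) in each of 24 libraries by group of site and hairpin; points are libraries and horizontal lines are means of 4. Tslp lies between 311 and 728 CPM in the lung groups and in tumor shAsns-1, and between 36.9 and 71.0 CPM in the other tumor groups.

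Il33 followed the same division at far lower counts. In lung-derived cells it was 4.53, 3.58, 4.71 and 13.9 CPM in the libraries labelled shAsns-1, 3.58, 4.21, 2.31 and 0.995 CPM in shAsns-2, and 2.69, 3.82, 1.79 and 3.81 CPM in shRenilla. From tumors it was 2.36, 2.27, 3.02 and 1.75 CPM in the libraries labelled shAsns-1, 1.08, 0.576, 0.589 and 0.354 CPM in shAsns-2, and 0.445, 0.321, 0.234 and 0.350 CPM in shRenilla. Apart from lung shAsns-2 D at 0.995 CPM, which lay just below tumor shAsns-2 A at 1.08 CPM, every lung library and every tumor library labelled shAsns-1 was above the 8 other tumor libraries.

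The log2 fold change of Il33 was 2.79 ± 0.49 in the tumor libraries labelled shAsns-1 against tumor shRenilla, 3.16 ± 0.48 in lung against tumor shRenilla, and 2.24 ± 0.47 in lung against tumor shAsns-2. The tumor shRenilla libraries held only 7 to 12 Il33 reads each. Lung shAsns-1 D, at 13.9 CPM, also had the highest Dcn (8.61 CPM), Col3a1 and Col1a2 (8.53 CPM each) of all libraries, and a Lyz2 level, a macrophage gene, of 7.84 CPM against a median of 0.787 CPM. Among the libraries labelled shAsns-1, the lung-to-tumor log2 fold change of 1.5 ± 0.37 was called with this library and not without it (0.86), nor when these 2 groups were fitted alone.

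Il1a moved the other way, with tumor shAsns-2 and tumor shRenilla at the top. It was 3.58, 2.92, 4.04 and 3.55 CPM in the lung libraries labelled shAsns-1, 2.03, 2.41, 2.38 and 2.35 CPM in lung shAsns-2, and 3.14, 5.77, 4.09 and 3.52 CPM in lung shRenilla. In tumor-derived cells it was 1.72, 1.12, 2.42 and 1.44 CPM in the libraries labelled shAsns-1, 5.86, 9.30, 7.66 and 9.56 CPM in shAsns-2, and 8.90, 10.9, 7.68 and 13.8 CPM in shRenilla. The 8 tumor libraries with shAsns-2 or shRenilla lay above the other 16, and tumor shAsns-1 was the lowest group on average.

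The log2 fold change of Il1a was -2.60 ± 0.22 in the tumor libraries labelled shAsns-1 against tumor shRenilla. Lung against tumor it was -1.32 ± 0.21 in shRenilla and -1.84 ± 0.22 in shAsns-2, but 1.06 ± 0.23 in the libraries labelled shAsns-1, so this alarmin differed between sites in opposite directions with the hairpins. The positive value was not called once all libraries were thinned to the smallest total (0.72). Il1a exons share 222 bp with Gm14023 on the opposite strand and Csf2 exons share 96 bp with Gm12223, and the strand setting of the counting is not given in the sources used here, so reads of these pairs could not be told apart.

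Csf1 (M-CSF), the growth factor of macrophages, was the second most abundant of the 9 genes per length of exon in 5 groups and the most abundant in tumor shRenilla, at 38.2 ± 6.84 CPM per kb against 34.6 ± 7.80 CPM per kb for Tslp, a difference within their spread. Csf1 averaged 147 ± 10.1 CPM in lung shAsns-1, 129 ± 63.9 CPM in lung shAsns-2 and 134 ± 7.46 CPM in lung shRenilla, and 112 ± 11.7 CPM, 196 ± 60.6 CPM and 202 ± 36.1 CPM in tumor shAsns-1, shAsns-2 and shRenilla. In the tumor, all 4 libraries labelled shAsns-1 (98.5 to 123 CPM) lay below all 8 others (136 to 281 CPM), with a log2 fold change of -0.85 ± 0.22 against shRenilla. Lung shAsns-2 D stood at 224 CPM, while the other 3 of its group ran from 90.0 to 109 CPM.

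Csf2 (GM-CSF), which acts on granulocytes and macrophages, was 3.81, 3.31, 4.71 and 2.08 CPM in the tumor libraries labelled shAsns-1, 7.29, 9.52, 6.90 and 6.98 CPM in tumor shAsns-2, and 8.05, 5.63, 6.71 and 8.41 CPM in tumor shRenilla. Its lung libraries ran from 4.19 to 6.76 CPM with the label shAsns-1, 2.91 to 4.87 CPM with shAsns-2 and 3.75 to 4.62 CPM with shRenilla. Tumor shAsns-1 did not overlap the other tumor groups and overlapped all 3 lung groups. The log2 fold change of Csf2 was -1.05 ± 0.20 in tumor shAsns-1 against tumor shRenilla, -0.77 ± 0.20 in lung against tumor shRenilla and -1.0 ± 0.20 in lung against tumor shAsns-2.

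Csf3 (G-CSF), the growth factor of neutrophils, was called in none of the 11 comparisons by edgeR. Its group means ran from 9.69 ± 0.386 CPM in tumor shAsns-1 to 13.9 ± 2.53 CPM in tumor shAsns-2, with 13.7 ± 1.80, 11.6 ± 0.852 and 12.6 ± 5.01 CPM in lung shAsns-1, shAsns-2 and shRenilla and 12.4 ± 0.928 CPM in tumor shRenilla. The 4 tumor libraries labelled shAsns-1, at 9.19 to 10.0 CPM, nevertheless lay below all 4 of tumor shAsns-2 and all 4 of tumor shRenilla. The log2 fold change against shRenilla was -0.36 ± 0.21, and 5 of 18 alternative analyses called it. The lowest library of all was lung shRenilla B, at 5.29 CPM, where the other 3 of its group ran from 13.5 to 16.3 CPM.

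Il6, the founding member of the gp130 family, was the lowest of the 9 genes per kb in 4 groups, with 5 to 114 reads a library. It was 2.44, 0.856, 1.20 and 4.40 CPM in the lung libraries labelled shAsns-1, 0.602 to 1.07 CPM in lung shAsns-2 and 0.896 to 1.76 CPM in lung shRenilla. Tumor-derived libraries ran from 0.308 to 0.500 CPM with the label shAsns-1, 0.494 to 1.08 CPM with shAsns-2 and 0.178 to 0.561 CPM with shRenilla. Lung and tumor did not overlap within shRenilla (log2 fold change 1.64 ± 0.41) or within the label shAsns-1 (2.39 ± 0.40, and 1.83 without lung shAsns-1 D). They did overlap within shAsns-2 (0.14 ± 0.43).

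Il11, which in mice acts on stromal and epithelial cells through gp130, was higher in the lung with every hairpin. It was 26.4, 24.3, 26.1 and 37.2 CPM in the lung libraries labelled shAsns-1, 14.3, 13.8, 15.6 and 29.1 CPM in lung shAsns-2, and 21.8, 20.9, 23.2 and 25.2 CPM in lung shRenilla. Tumor-derived cells had 11.6, 6.82, 13.6 and 13.0 CPM in the libraries labelled shAsns-1, 6.57, 4.64, 5.20 and 11.9 CPM in shAsns-2, and 7.57, 5.27, 6.11 and 5.82 CPM in shRenilla. All 12 lung libraries lay above all 12 tumor libraries.

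The lung-to-tumor log2 fold change of Il11 was 1.34 ± 0.25 with the label shAsns-1, 1.38 ± 0.26 with shAsns-2 and 1.88 ± 0.26 with shRenilla. In this gene tumor shAsns-1 sat between the lung libraries and tumor shRenilla, at a log2 fold change of 0.87 ± 0.26 against tumor shRenilla, and tumor shAsns-1 B (6.82 CPM) overlapped tumor shRenilla. The high library of lung shAsns-1 was again D, and that of lung shAsns-2 was also D.

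Lif, leukemia inhibitory factor, was highest in tumor shAsns-2 and tumor shRenilla. In lung-derived cells its range was 6.19 to 7.84 CPM with the label shAsns-1, 4.64 to 10.7 CPM in shAsns-2 and 6.16 to 7.42 CPM in shRenilla. Among tumor-derived cells the level was 5.45, 7.09, 5.66 and 7.44 CPM in the libraries labelled shAsns-1, 15.7, 17.6, 18.6 and 23.2 CPM in shAsns-2, and 21.4, 19.7, 22.1 and 17.0 CPM in shRenilla. The 8 tumor libraries with shAsns-2 or shRenilla lay above the other 16, none of which passed 10.7 CPM.

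The log2 fold change of Lif was -1.64 ± 0.18 in tumor shAsns-1 against tumor shRenilla, -1.52 ± 0.18 in lung against tumor shRenilla and -1.48 ± 0.18 in lung against tumor shAsns-2. Lung and tumor libraries labelled shAsns-1 overlapped (0.07 ± 0.19). Lif, Csf2 and Il11 are the 3 of the 9 genes whose GENCODE 3′ UTR (of the transcript with the longest coding region) holds the AU-rich nonamer UUAUUUAUU, with 2, 4 and 5 copies. Of 21017 genes with a 3′ UTR, 6.98% hold it. Lif and Csf2 were lower and Il11 higher in tumor shAsns-1 than in tumor shRenilla. Decay of these mRNAs was not measured, and the part of the nonamer in their levels was not tested.

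Over the comparisons, the 9 genes were called as follows by edgeR at an adjusted p under 0.05 over 12625 tested genes, all 9 of which passed the filter on low counts. The choice of the 9 genes used these contrasts, so nothing is read from the counts. In tumor shAsns-1 against tumor shRenilla 3 were called higher (Tslp, Il33, Il11) and 4 lower (Csf1, Csf2, Il1a, Lif), where 33.9% of all tested genes were called. Tumor shAsns-1 against tumor shAsns-2 gave 2 higher (Tslp, Il33) and the same 4 lower, with 27.1% of all genes called. Il11 was not called there (0.69 ± 0.26), but was without tumor shAsns-1 B (0.87) or tumor shAsns-2 D (1.09). In tumor shAsns-2 against tumor shRenilla no member was called, with 0.0634% of all genes called (8 genes by edgeR, 893 at an unadjusted p under 0.05).

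Between hairpins in the lung, edgeR called none of the 9 genes. All genes called were 0.206% for shAsns-1 against shRenilla, 0% for shAsns-2 against shRenilla and 0.261% for shAsns-1 against shAsns-2, with 1665, 1068 and 707 genes at an unadjusted p under 0.05. Limma with library weights called 1 of the 9 in the first, 6 in the second (Tslp, Csf1, Csf3, Il1a, Il11 and Lif, each lower in shAsns-2) and 5 in the third (Csf1, Csf2, Il6, Il1a and Il11, each higher in shAsns-1). The shares of all genes above are those of edgeR. The share called by limma is not given here, so its counts do not set the 9 genes apart from the rest. The largest difference in the lung was that of Il6 in shAsns-1 against shAsns-2, at a log2 fold change of 1.5 ± 0.37. DESeq2 called Il6 there too.

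Between sites, lung against tumor, 3 of the 9 genes were called higher and 4 lower in shAsns-2, with 20.9% of all genes called. In shRenilla 4 were called higher and 3 lower, with 21.8% called. In the libraries labelled shAsns-1, 4 were called higher (Il6, Il1a, Il11, Il33) and none lower, with 8.55% called. Csf1 was called lower in shAsns-2 (-0.61 ± 0.22), a call that 9 of 18 alternative analyses did not make, among them those without any 1 of tumor shAsns-2 A, C or D or lung shAsns-2 A, B or C. It was not called in shRenilla (-0.59 ± 0.21), where 9 of 18 alternatives called it, among them that without tumor shRenilla D.

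**Figure D2:**
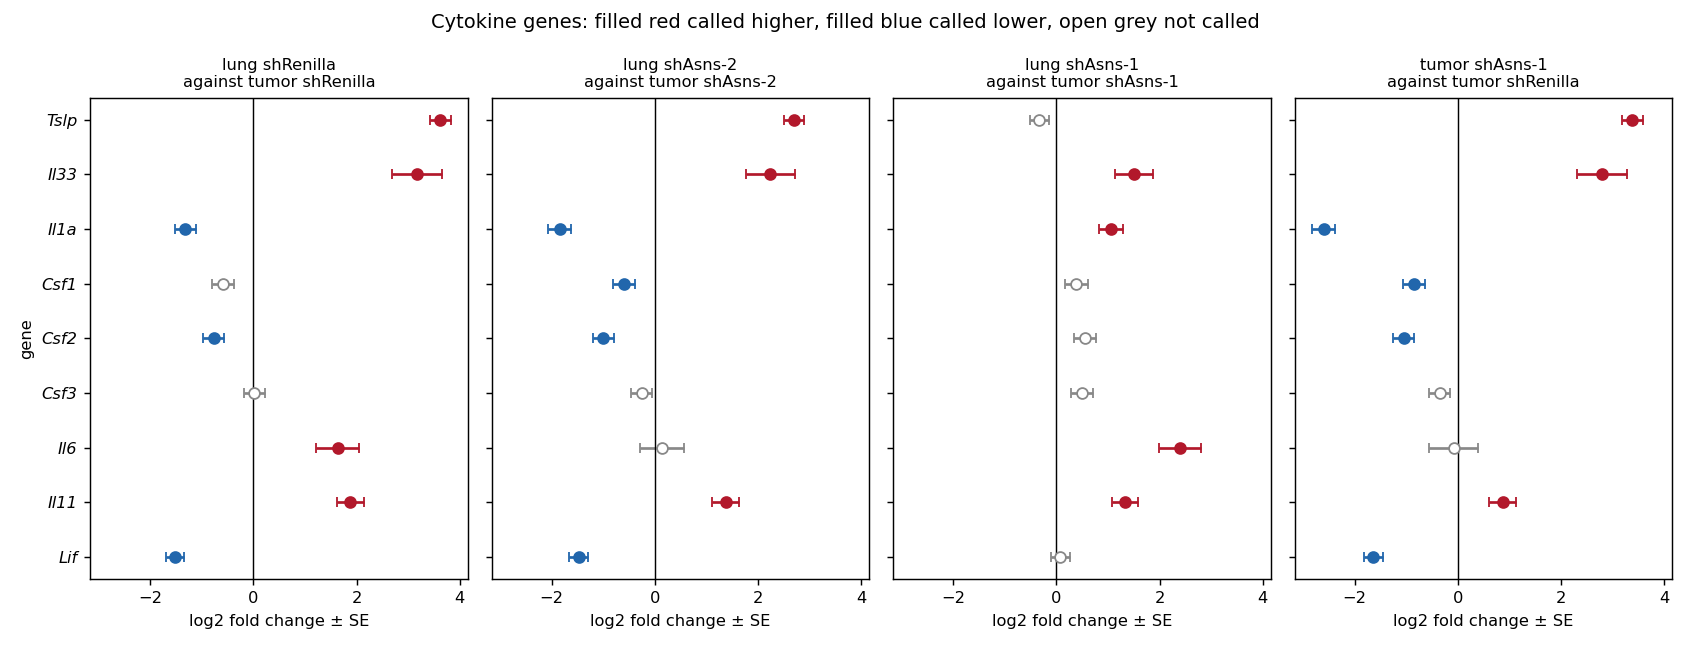
Log2 fold change ± SE from the edgeR fit (horizontal axis) of the 9 cytokine genes in 4 comparisons; filled red points were called higher, filled blue points lower, and open grey points were not called. Tslp is at 3.62 in lung against tumor shRenilla, 2.70 in shAsns-2 and 3.38 in tumor shAsns-1 against tumor shRenilla, and at -0.33 in lung against tumor shAsns-1.

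The difference between sites in the contrast of 2 hairpin labels, lung minus tumor, was fitted as an interaction. For the label shAsns-1 against shRenilla it was -3.95 ± 0.27 on the log2 scale for Tslp, 2.38 ± 0.31 for Il1a, 1.59 ± 0.26 for Lif, 1.32 ± 0.29 for Csf2 and 0.98 ± 0.30 for Csf1. These 5 were called, where 14.2% of all genes were. For Il33 it was -1.66 ± 0.62 and not called. For shAsns-2 none of the 9 was called, nor was any other gene (0% called by edgeR, 599 genes at an unadjusted p under 0.05), with values from -1.5 ± 0.60 for Il6 to 0.04 ± 0.26 for Lif. The Csf1 value for shAsns-1 was not called without a filter on low counts, nor without any 1 of tumor shAsns-1 A or C, tumor shRenilla B or C, lung shAsns-1 A or D, or lung shRenilla C.

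The receptors for the colony-stimulating factors and the partner chain of the Tslp receptor were nearly absent from the cells. Il7r, the signalling partner chain of the Tslp receptor, reached 7 reads at most, Csf1r 13, Csf2ra 8, Csf2rb 9 and Csf3r 4, and these 5 and Csf2rb2 were too low to test. Crlf2, the Tslp-binding chain, was tested and averaged 0.882 ± 0.348 to 1.20 ± 0.318 CPM over the groups, with no call. Of the receptor chains for the IL-1 and gp130 families, Il6st (gp130) had means of 35.2 to 44.4 CPM, Il1r1 36.9 to 57.1 CPM and Il1rap 38.3 to 57.8 CPM. Others were low. Lifr in tumor shRenilla and Il1r2 in tumor shAsns-1 averaged less than Crlf2 did in any group.

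Of 10 receptor chains tested, 5 rose and 3 fell in tumor shAsns-1 against tumor shRenilla (edgeR, median log2 fold change 0.12, against -0.01 over all genes). All genes called there were 33.9%, the share beside which the counts of each list in this comparison stand. Il1r2, the decoy receptor for IL-1, averaged 0.337 ± 0.106 CPM in tumor shAsns-1 and 1.21 ± 0.467 CPM in tumor shRenilla, and fell (log2 fold change -1.86 ± 0.35, adjusted p = 0.000186). Il1rl1, the receptor for IL-33, fell as well, with 0.964 ± 0.333 CPM in tumor shAsns-1 and 2.71 ± 0.713 CPM in tumor shRenilla (-1.49 ± 0.29, adjusted p = 0.000304). Il6ra, the IL-6 binding chain, and Lifr, the LIF binding chain, rose, by 1.27 ± 0.25 (adjusted p = 0.000389) and 1.39 ± 0.37 (adjusted p = 0.0051). Il33 was thus higher and its receptor lower in the same libraries, and Lif lower and its receptor higher. Il11 and its receptor chain Il11ra1 (0.59 ± 0.23, adjusted p = 0.0451) were instead both called higher. Il1a was lower with Il1r1 higher (0.63 ± 0.11), and Tslp was higher with Crlf2 not called. Ligands and receptors thus shared no 1 relation.

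Between sites, Lifr rose in lung against tumor shRenilla, with 1.59 ± 0.547 CPM in lung and 0.276 ± 0.109 CPM in tumor (log2 fold change 2.52 ± 0.35, adjusted p = 4.76e-06), and in lung against tumor shAsns-2 (2.01 ± 0.38, adjusted p = 0.00036). In all, 4 receptor chains rose and 1 fell in shRenilla (median 0.28, all genes 0.00 with 21.8% called), 3 rose and 1 fell in shAsns-2 (median 0.09, all genes 0.01 with 20.9% called), and 2 rose in the libraries labelled shAsns-1 (median 0.30, all genes 0.03 with 8.55% called). The 2 were Osmr, the oncostatin M receptor, and Il1rl1. Both calls ended without lung shAsns-1 D, and that of Il1rl1 also without lung shAsns-1 A or B or tumor shAsns-1 B, C or D. Osmr was also the 1 receptor chain that rose in lung shAsns-1 against lung shAsns-2 (0.80 ± 0.15, adjusted p = 0.0162), a call that ended without any 1 of 4 libraries, lung shAsns-1 D and lung shAsns-2 A, B and C.

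Among 13 other ligands of the same families, 4 rose and 1 fell in tumor shAsns-1 against tumor shRenilla (median 0.16), 38.5% called and close to the 33.9% of all genes. Il23a, a subunit of IL-23, fell, with 12.1 ± 1.71 CPM in tumor shAsns-1 and 44.2 ± 5.26 CPM in tumor shRenilla (log2 fold change -1.87 ± 0.14, adjusted p = 1e-10). Il18, of the IL-1 family, rose, with 7.47 ± 0.741 CPM in tumor shAsns-1 and 2.29 ± 0.195 CPM in tumor shRenilla (1.70 ± 0.20, adjusted p = 3.24e-07). Il15 and Il7, growth factors of lymphocytes, rose by 0.88 ± 0.13 (adjusted p = 6.65e-06) and 0.58 ± 0.16 (adjusted p = 0.00663, 0.0922 after thinning to the smallest library). Lung against tumor shRenilla gave the same directions for these 4 ligands, with log2 fold changes of -1.21 ± 0.13 for Il23a (adjusted p = 1.46e-07), 1.65 ± 0.20 for Il18 (adjusted p = 6.83e-07), 0.87 ± 0.13 for Il15 (adjusted p = 1.04e-05) and 1.03 ± 0.16 for Il7 (adjusted p = 2.39e-05), and both comparisons share the tumor shRenilla libraries. Lung against tumor, 3 ligands rose and 1 fell in shRenilla (median 0.29, 30.8% called, all genes 21.8%), 3 rose and 2 fell in shAsns-2 (median 0.02, 38.5% called, all genes 20.9%), and 2 rose in the libraries labelled shAsns-1 (median 0.26, 15.4% called, all genes 8.55%). Il1b stayed at 0.152 ± 0.0461 to 0.313 ± 0.184 CPM, and Osm, Il3 and the 3 IL-36 ligands had 5 reads or fewer in any library.

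Of 28 JAK-STAT and feedback genes, which act below the gp130 and Tslp receptors, 12 rose and 1 fell in tumor shAsns-1 against tumor shRenilla (median 0.29, against -0.01 over all genes). That is 46.4% called, where 33.9% of all genes were, 2041 higher and 2237 lower. Jak2, the kinase of many cytokine receptors, averaged 81.1 ± 10.3 CPM in tumor shAsns-1 and 43.2 ± 2.72 CPM in tumor shRenilla (log2 fold change 0.91 ± 0.15, adjusted p = 3.24e-05). The transcription factor gene Cebpb (1.06 ± 0.14, adjusted p = 2.36e-06), Pias3, which encodes an inhibitor of STAT3 (1.07 ± 0.17, adjusted p = 2.74e-05), and Socs3, a feedback inhibitor of gp130 (0.85 ± 0.17, adjusted p = 0.000439), also rose.

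Between sites, 8 genes of the JAK-STAT list rose and 1 fell in lung against tumor shRenilla (median 0.17, 32.1% called, all genes 21.8%), 5 rose and 1 fell in shAsns-2 (median 0.09, 21.4% called, near the 20.9% of all genes) and 1 rose in the libraries labelled shAsns-1 (median 0.08, 3.57% called, all genes 8.55%). Jak2 averaged 101 ± 28.7 CPM in lung shRenilla and 43.2 ± 2.72 CPM in tumor shRenilla (1.22 ± 0.15, adjusted p = 6.47e-07). Socs3 was the 1 gene of the 5 pathway lists that changed in the lung with shAsns-1 against shRenilla, with 4.81 ± 0.420 CPM in shAsns-1 and 2.47 ± 0.775 CPM in shRenilla (0.95 ± 0.17, adjusted p = 0.00792). That call ended without lung shRenilla A.

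Of 27 tested genes of IL-1 and NF-κB signalling, none rose and 6 fell in tumor shAsns-1 against tumor shRenilla (median -0.13), 22.2% called and below the 33.9% of all genes. Tnfaip3, which encodes the inhibitor A20, averaged 46.3 ± 7.01 CPM in tumor shAsns-1 and 112 ± 14.2 CPM in tumor shRenilla (log2 fold change -1.27 ± 0.15, adjusted p = 3.01e-07). Nfkbia, the gene for IκBα, fell by 0.81 on the log2 scale (SE 0.13, adjusted p = 1.65e-05), Nfkbib by 0.83 (SE 0.18, adjusted p = 0.00107) and Rel, a subunit, by 0.81 (SE 0.16, adjusted p = 0.000373).

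Lung against tumor, 3 of these 27 rose and 9 fell in shRenilla (median -0.10, 44.4% called, all genes 21.8%), and 2 rose and 8 fell in shAsns-2 (median -0.25, 37.0% called, all genes 20.9%). In the libraries labelled shAsns-1, 2 rose and none fell (median -0.05, 7.41% called, all genes 8.55%): Myd88, the adaptor of IL-1 receptors, and Irak2, a kinase bound to it, both calls that ended without lung shAsns-1 D or tumor shAsns-1 A, and that of Irak2 also without tumor shAsns-1 B. Tnfaip3 averaged 55.9 ± 16.5 CPM in lung shRenilla and 112 ± 14.2 CPM in tumor shRenilla (-1.0 ± 0.15, adjusted p = 1.34e-05), and 44.2 ± 3.99 CPM in lung shAsns-2 and 99.0 ± 13.1 CPM in tumor shAsns-2 (-1.16 ± 0.15, adjusted p = 2.12e-06). Relb, Nfkb2 and Nfkbie fell in both, by 0.82 to 0.86 on the log2 scale in shRenilla and by 0.84 to 0.98 in shAsns-2.

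Of 12 regulators of AU-rich mRNAs, 1 rose and 2 fell in tumor shAsns-1 against tumor shRenilla (median -0.03), 25% called and below the 33.9% of all genes. Zfp36, which encodes tristetraprolin, averaged 4.80 ± 0.907 CPM in tumor shAsns-1 and 7.37 ± 1.59 CPM in tumor shRenilla (-0.62 ± 0.22, adjusted p = 0.0298), a call that ended without any 1 of tumor shAsns-1 A or C or tumor shRenilla B or C. Its relative Zfp36l1 averaged 135 ± 10.6 CPM in tumor shAsns-1 and 219 ± 15.8 CPM in tumor shRenilla (-0.70 ± 0.10, adjusted p = 9.87e-06). Both also fell in lung against tumor with shRenilla (Zfp36 -0.89 ± 0.22, adjusted p = 0.00392) and with shAsns-2 (Zfp36 -1.19 ± 0.22, adjusted p = 0.000295), where the lists gave 1 higher and 2 lower, and 0 higher and 2 lower (medians -0.17 and -0.15, with 25% and 16.7% called, near the 21.8% and 20.9% of all genes).

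**Figure D3:**
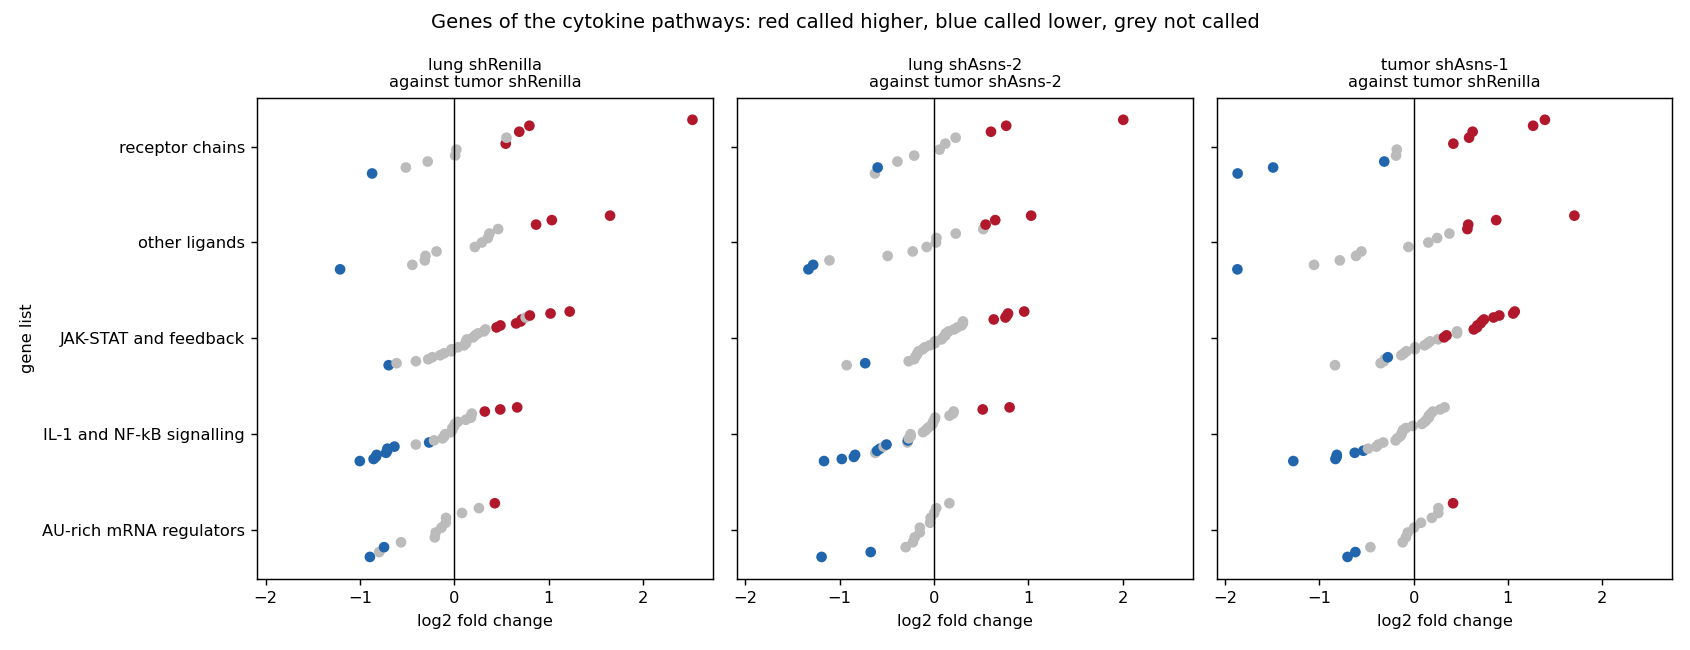
Log2 fold change from the edgeR fit (horizontal axis) of each tested gene of 5 pathway lists in 3 comparisons; 1 point per gene, red called higher, blue called lower, grey not called. In tumor shAsns-1 against tumor shRenilla 12 of 28 JAK-STAT genes are red and 6 of 27 IL-1 and NF-κB genes are blue.

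In tumor shAsns-1 against tumor shAsns-2, receptor chains gave 3 higher and 2 lower (median 0.07), other ligands 4 and 2 (median -0.20), JAK-STAT genes 9 and 1 (median 0.23), IL-1 and NF-κB genes 1 and 8 (median -0.11) and AU-rich regulators 0 and 2 (median -0.08), where 27.1% of all genes were called. Tnf, the gene for tumor necrosis factor, averaged 0.192 ± 0.0850 CPM in tumor shAsns-1 and 0.676 ± 0.347 CPM in tumor shAsns-2 (-1.92 ± 0.38, adjusted p = 0.000516). In tumor shAsns-2 against tumor shRenilla, and in lung shAsns-2 against lung shRenilla, none of the 90 list genes tested was called.

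Genes outside these lists came close to single cytokines over the 6 group means. Likeness was the root mean square difference of log2 CPM group means, each gene centred on its own mean, among all tested genes, for members whose means span at least 1. Csf1 and Csf3 span less. Nearest to Tslp were Mgp, matrix Gla protein (0.214), Mmp3, stromelysin-1 (0.292) and Scara5, a ferritin receptor (0.294). Mgp averaged 21.6, 21.5 and 22.0 CPM in lung shAsns-1, shAsns-2 and shRenilla and 24.4, 3.23 and 2.16 CPM in the tumor groups in that order.

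Nearest to Lif were St14, the gene for the protease matriptase (0.101), the transcriptional repressor gene Bhlhe40 (0.108) and Slc44a2, a choline transporter-like gene (0.127). Nearest to Il1a were Tnfsf15, a TNF family ligand (0.190), Igsf11 (0.198) and Grhl1, an epithelial transcription factor gene (0.210), and nearest to Il33 were Map1a (0.234), Tspan11 (0.279) and Medag (0.292). For Csf2 the nearest were Relt (0.0473), Tnfrsf9 (0.0580), both of the TNF receptor family, and Snora44 (0.0721). For Il11 they were Xdh, xanthine dehydrogenase (0.104), Sec16b (0.152) and Wisp2 (0.153), and for Il6 Tagln, the smooth muscle gene for transgelin (0.254), Wnt5a (0.256) and Ifi47 (0.271). Some of these genes were near the floor. Tspan11 and Medag had at most 4 and 3 reads in any library of tumor shAsns-2 or tumor shRenilla. Wnt5a had at most 4 in any tumor library. At such counts the prior count of 2 weighs on the log2 mean, so part of the likeness may be a shared floor. The measure compares 6 means that come from the same libraries and has no test.

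**Figure D4:**
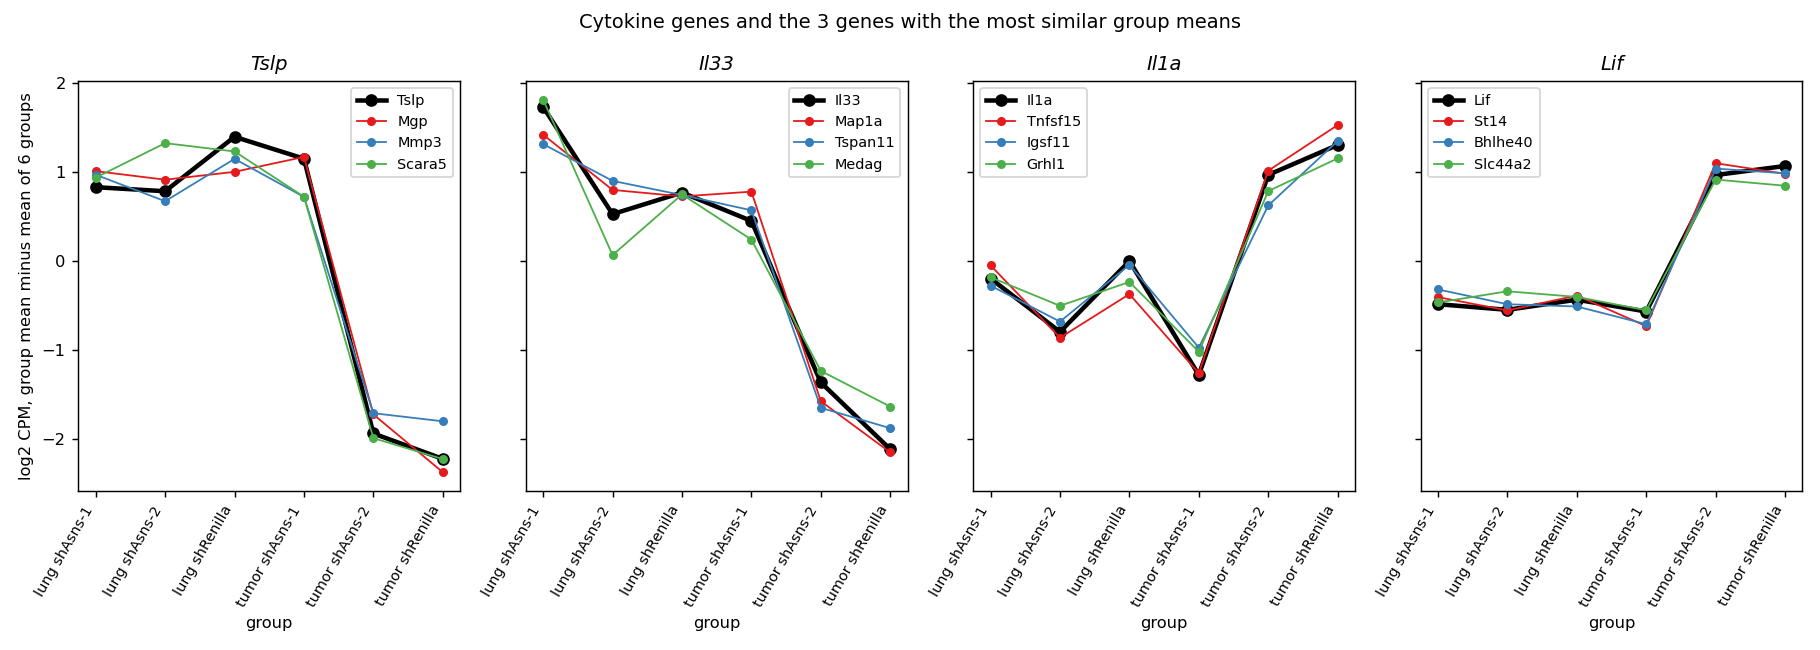
Group mean log2 CPM minus the mean of the 6 groups (vertical axis) for Tslp, Il33, Il1a and Lif (black) and the 3 genes with the smallest root mean square difference from each (coloured). Mgp lies at a root mean square difference of 0.214 from Tslp, and St14 at 0.101 from Lif.

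The levels of Il33, Il6 and Il11 were set beside the fibroblast marker sum because lung shAsns-1 D was the highest of the 24 libraries in all of them, though for Il6 it was not set far from its group by Dixon's outlier test. That library had 70.2 CPM of the 9 fibroblast markers, where the other 3 of its group had 34.3 to 35.6 CPM, and 28.5 CPM of 10 macrophage and leukocyte markers, where the other 3 had 17.8 to 26.1 CPM. Lung shRenilla B was the next highest in fibroblast markers, at 51.4 CPM. Within lung shRenilla it was the highest in Il33 (3.82 CPM, just above D) and the lowest in Il11 (20.9 CPM). Its Il6, at 1.57 CPM, lay below that of D. The part of the markers in these levels was not tested. Without lung shAsns-1 D the lung-to-tumor differences of Il6 and Il11 in the libraries labelled shAsns-1 remained called.

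**Figure D5:**
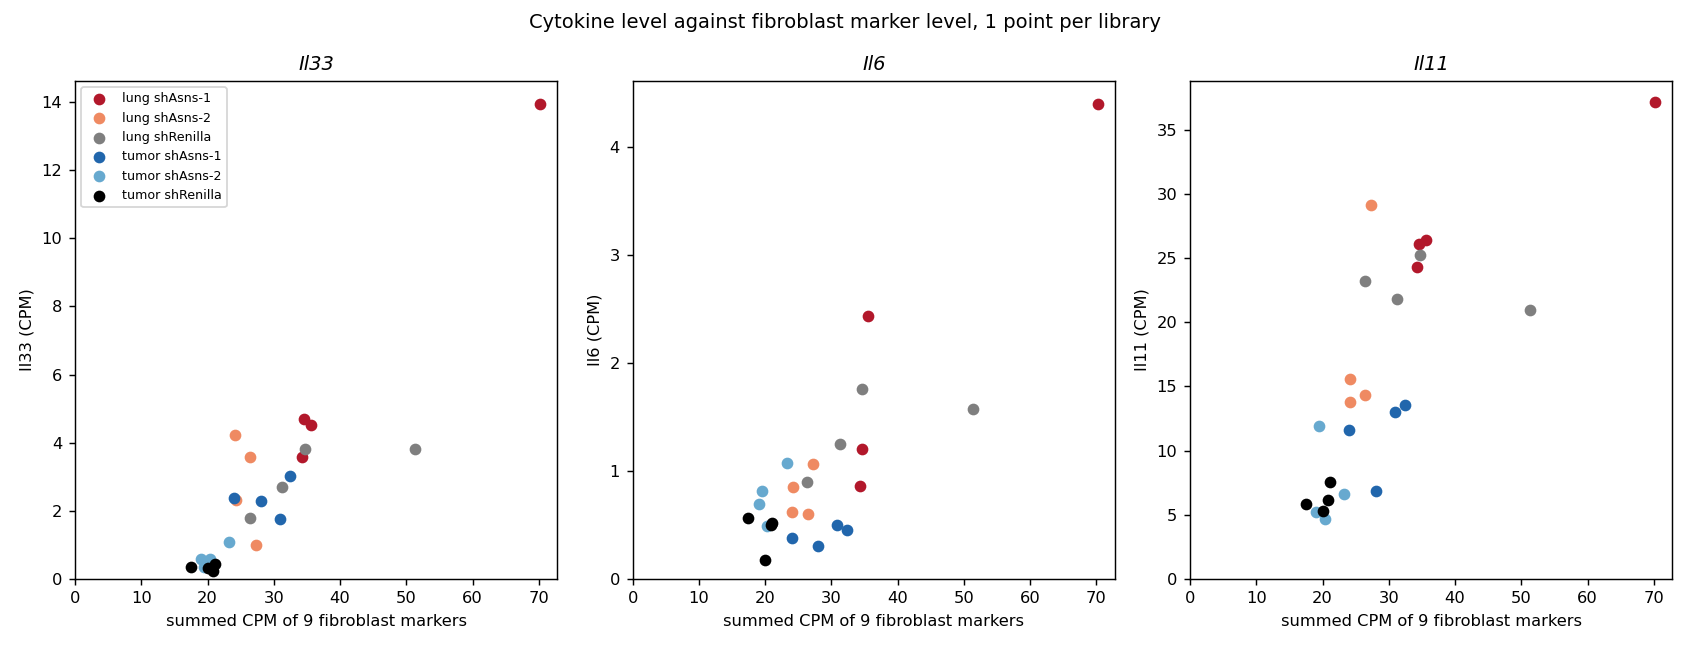
Il33, Il6 and Il11 in CPM (vertical axes) against the summed CPM of 9 fibroblast markers (horizontal axis), 1 point per library, coloured by group. Lung shAsns-1 D lies at 70.2 CPM of markers with 13.9 CPM of Il33, 4.40 CPM of Il6 and 37.2 CPM of Il11, and the next library in markers, lung shRenilla B, at 51.4 CPM.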

How the data were processed

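RNA of 24 libraries was measured, from total RNA (Trizol) with NuGEN Ovation RNAseq V2 libraries, per the labels. The authors deposited raw read counts, 1 row per gene symbol, made with Bowtie2 and HTSeq on mm10, per the submitters' processing notes. Versions, annotation, strand setting and filters are not given in the sources used here. Totals ran from 8.48 to 38.0 M counts, so that 1 read was worth 0.0263 to 0.118 CPM. No 2 libraries agreed within sampling noise (lowest chi-square per degree of freedom 4.88).

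Genes were fitted in edgeR 4.0.16 (R 4.3.3), by quasi-likelihood with robust dispersion, TMM scaling, filterByExpr (12625 genes kept) and 1 mean per group over all 24 libraries. Calls were made at a p under 0.05 after Benjamini-Hochberg adjustment over all genes of a comparison. The SE of a log2 fold change was its size divided by the root of the F statistic. The 11 comparisons were the hairpins within a site, the sites within a hairpin, and the difference between sites for each Asns hairpin. CPM used TMM totals, and log2 CPM for likeness a prior count of 2. Levels per kb used GENCODE M21 exon lengths (GRCm38), which matched 21909 of 23478 symbols and all 9 cytokine genes, with coordinates from the same annotation. Flanks came from RefSeq (GRCm38.p6), and no flank of Tslp or Csf3 was used.

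The 9 genes, 5 pathway lists and 8 marker lists were chosen with earlier results of these data known. The text names the 9 genes, Asns, at most 4 called genes with the largest change per list and comparison, summed markers with their defining genes, and the 3 nearest genes by likeness. Genes named outside that rule, such as receptors and ligands at low levels, were named after their values were seen. Other analyses used DESeq2 1.42.0, edgeR with DESeq2 size factors, limma-voom (limma 3.58.1) with library weights, no filter on low counts, counts thinned to the smallest library, a replicate block, only the compared groups, 2 far lung libraries left out, and each library left out in turn. Offsets for GC content and length, and leaving out 3 lung libraries, were added after seeing the data. The fits were tested on simulated data. Figures were drawn with matplotlib 3.10.9.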

Additional observations from a re-analysis of the deposited data

Results flagged for a closer look

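Within groups of 4 libraries, 6 of 54 groups of the 9 cytokine genes held a library set far from the rest by Dixon's test, which chance gives in about 1 in 20 groups. These were Csf1 (224 CPM) and Il11 (29.1 CPM) in lung shAsns-2 D, Il33 (13.9 CPM) and Il11 (37.2 CPM) in lung shAsns-1 D, Csf2 (9.52 CPM) in tumor shAsns-2 B and Il6 (0.178 CPM, 5 reads) in tumor shRenilla B. Lung shAsns-2 D also had the lowest sum of carcinoma epithelial markers of its group, 379 CPM, where the other 3 had 639 to 785 CPM. Lung shAsns-1 D had the highest Col1a2 and Col3a1 of all libraries. The part of either in the cytokine levels was not tested.

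The contrast of the label shAsns-1 against shRenilla differed between sites, by the interaction in edgeR, for 5 cytokine genes. On the log2 scale, lung minus tumor, it was -3.95 for Tslp, 2.38 for Il1a, 1.59 for Lif, 1.32 for Csf2 and 0.98 for Csf1. Among receptor chains it was -1.71 for Lifr (adjusted p = 0.0153), 1.55 for Il1rl1 (adjusted p = 0.0103), 1.48 for Il1r2 (adjusted p = 0.0457) and -1.04 for Il6ra (adjusted p = 0.0495). The Lifr call ended without tumor shAsns-1 D, that of Il1r2 was made in 11 of 24 alternatives, and that of Il6ra in 9 of 25. Among other ligands it was 1.62 for Il23a (adjusted p = 1.84e-06), -1.55 for Il18 (adjusted p = 0.0003), -0.81 for Kitl (adjusted p = 0.0116) and -0.60 for Il15 (adjusted p = 0.0203).

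Among JAK-STAT and feedback genes the difference between sites was -1.29 for Jak2 (adjusted p = 0.000103), -0.89 for Pias3 (adjusted p = 0.0132), -0.79 for Socs5 (adjusted p = 0.0078) and -0.65 for Ptpn6 (adjusted p = 0.0324, called in 14 of 25 alternatives). Among IL-1 and NF-κB genes it was 1.17 for Nfkbib (adjusted p = 0.00326), 1.02 for Nfkbia (adjusted p = 0.000264), 0.95 for Tnfaip3 (adjusted p = 0.00289) and 0.82 for Rel (adjusted p = 0.0184). Among AU-rich regulators it was -0.70 for Zfp36l2 (adjusted p = 0.019) and 0.68 for Zfp36l1 (adjusted p = 0.00235). Of the genes called for this difference, the list totals were 2 positive and 3 negative of 10 receptor chains, 1 and 3 of 13 ligands, 0 and 5 of 28 JAK-STAT genes, 4 and 0 of 27 NF-κB genes and 1 and 1 of 12 AU-rich regulators. That is 50%, 30.8%, 17.9%, 14.8% and 16.7% called in that order, where 14.2% of all genes were. The shares of JAK-STAT genes, NF-κB genes and AU-rich regulators were thus near that of all genes.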

How the results depend on the processing

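Of 3843 alternative log2 fold changes of single genes, 3540 were classed as the same as in the main fit. The rest were classed as weaker (169), stronger (62), moved (72) or reversed (0). Reversal was counted only for genes called in the main fit, and a changed sign in a gene not called was classed as moved. The 0 therefore does not mean that no value changed direction. Counts of calls are not among these values. The 7 cytokine genes called in tumor shAsns-1 against tumor shRenilla were 7 without any 1 library. Member counts were otherwise 6 to 7 in tumor shAsns-1 against tumor shAsns-2, 3 to 5 in lung against tumor shAsns-1, 6 to 7 in shAsns-2, 7 to 8 in shRenilla, 4 to 5 for the shAsns-1 difference between sites and 0 to 1 in lung shAsns-1 against lung shAsns-2 (1 without lung shAsns-1 B or C, Il6), and 0 to 0 in the rest. The same ranges for list genes were 0 to 5 in lung against tumor shAsns-1 (0 without lung shAsns-1 D, 7 with all libraries), 0 to 1 in lung shAsns-1 against lung shRenilla (0 without lung shRenilla A) and 0 to 1 in lung shAsns-1 against lung shAsns-2 (0 without lung shAsns-1 D or lung shAsns-2 A, B or C).

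Limma with library weights called more: members 1 (0 by edgeR) and list genes 8 (1) in lung shAsns-1 against lung shRenilla, 6 (0) and 11 (0) in lung shAsns-2 against lung shRenilla, 5 (0) and 15 (1) in lung shAsns-1 against lung shAsns-2, 8 (4) and 31 (7) in lung against tumor shAsns-1, and list genes 31 (20) for the shAsns-1 difference between sites. It did not call Il33 in tumor shAsns-1 against tumor shAsns-2 (1.78). The share of all genes that limma called is not given here, so its counts do not set members or list genes apart from the rest. DESeq2 gave 1 member and 3 list genes in lung shAsns-1 against lung shAsns-2, and 1 list gene in lung shAsns-2 against lung shRenilla. With counts thinned to the smallest library, list genes were 20 (32) in tumor shAsns-1 against tumor shAsns-2, 4 in lung against tumor shAsns-1, 13 for the difference between sites and 0 in both lung comparisons of shAsns-1. With only the compared groups they were 30 in lung against tumor shAsns-1 and 0 in those lung comparisons. With 2 libraries left out (lung shAsns-2 D, lung shRenilla B), lung shAsns-1 against lung shAsns-2 gave 2 members and 2 list genes, and lung against tumor shAsns-1 26 list genes. Chosen after seeing the data, GC and length offsets gave 2 and 13 list genes in those 2 comparisons, and leaving out these 2 and lung shAsns-1 D gave 16 in lung against tumor shAsns-1 and 0 in lung shAsns-1 against lung shRenilla. The shares of all genes called in the other alternative analyses, including those with libraries left out, are not given here either. Their counts thus do not set members or list genes apart from the rest. The cause of these changes in count was not tested.

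The shared letters A to D were not taken to pair the samples: correlations of same-letter deviations ran from -0.41 to 0.35, and no comparison had all 4 above 0.1, though lung against tumor shAsns-2 had 3 of 4 (lowest -0.015). A replicate block moved no count of calls by over 1.5 times (7 members in tumor shAsns-1 against tumor shRenilla, list genes 32 in place of 35). Depth limits Il6 and Il33 most, with 5 and 7 reads in their lowest libraries.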
